A study of Mus musculus with 24 samples.

Results

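Genes of the glutamate receptors and of the scaffold that holds them in the postsynaptic membrane were followed in the prefrontal cortex of mice with the Df(16)A+/- deletion. The list names 37 genes, chosen by function: 4 subunits of AMPA receptors, 6 of NMDA receptors, 5 of kainate receptors, 6 metabotropic receptors and 16 scaffold, kinase and adhesion genes. Of these, 36 had a row with 1 gene symbol in the deposited table, out of 18820 such genes in all; Grin1, the obligatory NMDA subunit, was not analysed here. A gene with several rows was represented by the brightest over the 24 arrays.

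The mutants, MUT in the labels, carried the genotype that the series title writes as Df(16)A+/- and the sample labels as Df16(A)+/-, a heterozygous engineered deletion on chromosome 16 that models the human 22q11.2 microdeletion. The wild types, WT, were their littermates. Each group held 12 males of the C57BL6/J background, 8 weeks old, with 1 array per mouse and no treatment named in the labels. The labels call the samples replicates and do not say more on how the animals were kept apart, so p-values measure the spread between these samples.

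Glutamate is the main excitatory transmitter of the cortex. AMPA receptors carry the fast current and NMDA receptors pass calcium when the membrane is already depolarised. Kainate receptors modulate transmission on either side of the synapse, and metabotropic receptors signal through G proteins. Beneath the membrane, MAGUK proteins of the Dlg family bind receptor tails, Dlgap proteins link them to Shank, and Shank and Homer reach on to the metabotropic receptors and the actin skeleton. The kinase CaMKII tunes receptor strength, and neuroligins join the postsynaptic membrane to presynaptic neurexins.

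Values are RMA values, a summary of the probes of 1 row, on the log2 scale, on which a step of 1 is a doubling. The arrays were alike, with medians between 6.71 and 6.82 and pairwise correlations between 0.994 and 0.997. The mean over 18 genes of the deleted interval lay between 8.36 and 8.45 in mutants and between 9.02 and 9.09 in wild types, so the groups did not overlap on the genes that define the genotype. All 18 fell (limma, adjusted over all genes). Of all 18820 genes, 100 rose and 43 fell, with a median log2 fold change of -0.001.

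The comparison asked whether the transcripts of this synapse differed between genotypes. None of the 36 genes passed the test (limma, p adjusted by the Benjamini-Hochberg method over all genes, threshold 0.05), where 0.76% of all genes did. The smallest adjusted p was 0.164, for Gria4. An unadjusted p under 0.05 was found for 8 of the 36 (22.2%), against 11.9% of all genes. Of the 8, 6 were higher in mutants, where 6.11% of all genes were higher at that level, and 2 were lower, where 5.82% were. All 8 were receptor genes: 8 of 20 receptor genes and 0 of 16 scaffold genes. Whether the classes differ was not tested. The median log2 fold change over the 36 genes was 0.02, and 24 (66.7%) lay above 0, against 49.0% of all genes.

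The differences were small. The log2 fold changes lay between -0.10 and 0.12, and the 95% intervals of all 36 lay between -0.19 and 0.21. In linear terms, the intervals reached from 12.1% lower to 15.9% higher in mutants. RMA compresses differences of dim rows, and 34 of the 36 genes had a mean above 7.58, the median of all genes.

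**Figure D1:**
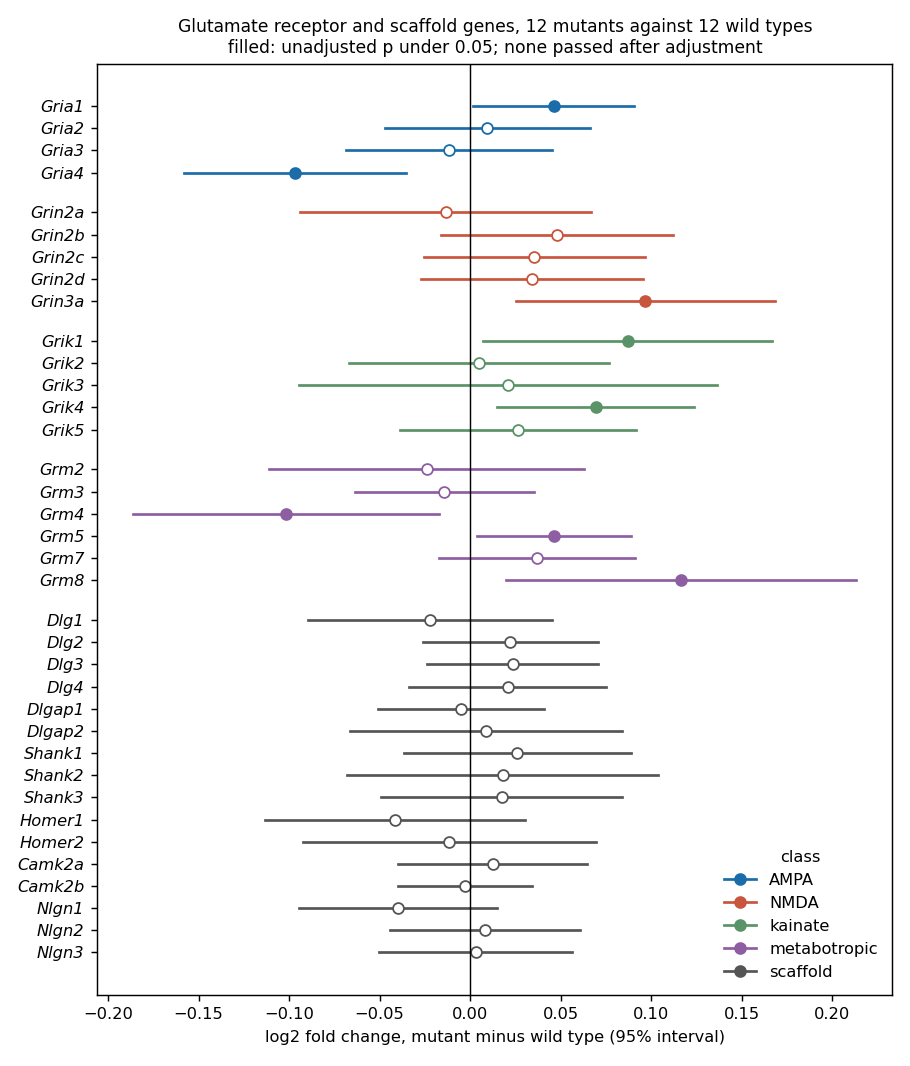
Log2 fold change, mutant minus wild type, of 36 genes grouped by class, with the 95% interval from limma; filled points had an unadjusted p under 0.05. The filled points, 8 in all, lie in the receptor classes, and all 16 scaffold intervals include 0.

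The 4 AMPA subunits lay on either side of 0. Gria4, whose subunit GluA4 gives fast receptors and is prominent in parvalbumin interneurons, had the smallest p of all 36 genes. In wild types its lowest, median and highest values were 10.34, 10.45 and 10.57, and in mutants 10.26, 10.37 and 10.47. The groups overlapped, with 11 of 12 mutants below the wild-type median and 5 below the lowest wild type. The log2 fold change was -0.10 ± 0.03 (SE), a difference of -6.48% (limma, unadjusted p = 0.00338, adjusted p = 0.164). Pvalb, the marker of those interneurons, had a log2 fold change of -0.06 ± 0.07, while the other 5 of the 6 interneuron markers lay above 0, from 0.02 for Slc32a1 to 0.11 for Vip, and the median of the 6 was 0.04. None of the 6 had an unadjusted p under 0.05, and their part in the Gria4 value was not tested. In bulk tissue, fewer cells of a type and less RNA per cell cannot be told apart.

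Gria1, which encodes the subunit GluA1 that is inserted during synaptic potentiation, lay on the other side of 0. Its wild types ran from 11.60 over a median of 11.65 to 11.74, and its mutants from 11.59 over 11.70 to 11.79. All but 1 of the 12 mutants were above the wild-type median, while the lowest mutant was also the lowest of all 24 mice. The log2 fold change was 0.05 ± 0.02 (limma, adjusted p = 0.403). Gria2, which makes receptors impermeable to calcium, had 0.01 ± 0.03, and Gria3 had -0.01 ± 0.03. The median of the class was -0.001.

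Within genotypes, the values of the AMPA subunits varied together over the 24 arrays. Each value was taken as a deviation from the mean of its genotype, and the deviations of 2 genes were correlated over the 24 mice. All 6 pairs of AMPA subunits had a Pearson r above 0.5, from 0.51 for Gria1 and Gria4 to 0.70 for Gria2 and Gria3, with a median of 0.61. Of all pairs of genes above the median level, which were not matched to these genes in brightness, 3.3% had an r above 0.5. Adjusted over the 630 pairs of the 36 genes, 5 of the 6 passed (permutation test within genotypes, two-sided); Gria1 and Gria4 had an adjusted p of 0.0857. Spearman's rho ran from 0.54 to 0.72 over the 6 pairs. Without the 2 mice farthest from the median of the first gene, r ran from 0.47 to 0.61. Over arrays 1 to 12 it was 0.38 for Gria1 with Gria2 and with Gria3. Under quantile normalization of the arrays 3 of the 6 were above 0.5, and Gria1 with Gria2 was at 0.35.

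The stretch before the start of transcription was read for Gria2 and Gria4, the AMPA genes of this co-varying set that matched a RefSeq promoter table of build GRCm38.p6. The 250 bases before the outermost listed start are given 5′ to 3′ on the gene's strand, which is minus for both, at chr3:80802836-80803085 and chr9:4796235-4796484.
Gria2: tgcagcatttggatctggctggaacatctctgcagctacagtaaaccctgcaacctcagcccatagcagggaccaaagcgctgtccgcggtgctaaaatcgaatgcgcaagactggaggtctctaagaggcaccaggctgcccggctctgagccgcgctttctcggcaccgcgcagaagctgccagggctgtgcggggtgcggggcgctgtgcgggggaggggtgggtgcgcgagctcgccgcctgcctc
Gria4: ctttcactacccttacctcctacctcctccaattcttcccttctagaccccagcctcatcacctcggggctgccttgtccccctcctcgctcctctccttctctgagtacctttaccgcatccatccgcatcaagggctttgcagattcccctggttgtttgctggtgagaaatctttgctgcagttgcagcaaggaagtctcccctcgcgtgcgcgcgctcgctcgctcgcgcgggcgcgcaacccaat
Capitals would mark a match, on either strand, to GGGCGG (the GC box), to TGACGTCA (the cyclic AMP response element, CRE) or to TATAAA (the core promoter motif). No match occurred in either window. Of the 36 genes, 23 matched the table. A GC box was present in 13 of those 23 (56.5%), against 33.0% of 27018 windows of all genes, while the CRE and TATAAA were in none of them, against 1.6% and 13% of all windows. The median GC content was 62.8% in the 23 windows and 52% in all. A match describes letters and not a site of binding.

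Among NMDA subunits, 4 of 5 values lay above 0, and the median was 0.04. Grin3a, which encodes a glycine-binding subunit that lowers calcium entry, had the smallest p of the class. Its wild types ran from 9.11 over a median of 9.22 to 9.42 and its mutants from 9.18 over 9.35 to 9.42. All but 1 of the 12 mutants lay above the wild-type median, though the ranges almost coincided at the top. Its fold change was 0.10 ± 0.03 on the log2 scale (limma, adjusted p = 0.257).

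Grin2b and Grin2a encode the main partners of the obligatory subunit in forebrain; Grin2b has slower currents and prevails early in life. Grin2b ran from 11.72 over 11.86 to 11.92 in wild types and from 11.77 over 11.87 to 11.99 in mutants, a log2 difference of 0.05 ± 0.03 (limma, adjusted p = 0.571). Grin2a, the most variable gene of the class between mice (SD within genotypes 0.10), ran from 11.45 over 11.63 to 11.80 and from 11.51 over 11.61 to 11.82. Its log2 fold change was -0.01 ± 0.04. In Grin2b 4 wild types lay below the lowest mutant and 3 mutants above the highest wild type, and in Grin2a 1 wild type and 1 mutant did. Grin2c, expressed in astrocytes and few neurons of the forebrain, and Grin2d, found in interneurons, had 0.04 ± 0.03 and 0.03 ± 0.03.

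Grin2a and Grin2b had the highest correlation of the 630 pairs, with r = 0.85 and rho = 0.82 (permutation test, p = 1e-05 for r, the smallest that the resamples can give, adjusted p = 0.0021). MUT replicate 1 and WT replicate 1 were highest in Grin2a, at 0.19 and 0.16 above the means of their genotypes, and also lay high in Grin2b, at 0.12 and 0.10. WT replicate 12 was lowest in both, by 0.18 and 0.11 below its mean. Without the 2 mice farthest from the median of Grin2a, r was 0.81. The arrays 1 to 12 gave 0.93 and the others 0.83, while mutants alone gave 0.89 and wild types 0.81. Gria2 was correlated with either of them, at 0.77 for Grin2a and 0.78 for Grin2b (permutation test, adjusted p = 0.00315 for each). Under quantile normalization the former was 0.59 and did not pass. Grin2c and Grin2d did not join them: their highest r with Grin2a or Grin2b was 0.06, while they had 0.52 with each other (adjusted p = 0.0815).

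All 5 kainate subunits had values above 0, with a median of 0.03. That held for 4 of the 5 over arrays 1 to 12 and over arrays 13 to 24, where Grik3 (-0.01) and Grik2 (-0.04) respectively lay below. Grik4, a high-affinity subunit that needs a low-affinity partner, ran from 9.86 over 10.003 to 10.12 in wild types and from 9.99 over 10.08 to 10.15 in mutants. In this gene 3 mutants lay above the highest wild type and 5 wild types below the lowest mutant. The difference was 0.07 ± 0.03 on the log2 scale (limma, adjusted p = 0.290). Grik1, a low-affinity subunit known from interneurons, ran from 7.17 over 7.35 to 7.47 in wild types and from 7.18 over 7.41 to 7.56 in mutants, with 0.09 ± 0.04 (limma, adjusted p = 0.375). Its ranges overlapped, and 10 of 12 mutants were above the wild-type median. Grik1 is a dim row here, below the median of all genes.

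Grik5, the other high-affinity subunit, had 0.03 ± 0.03, and Grik2, the main low-affinity partner in cortex, 0.01 ± 0.03. Grik3 varied most between mice of all 36 genes, with an SD within genotypes of 0.14. It ran from 10.21 over 10.44 to 10.62 in wild types and from 10.21 over 10.47 to 10.74 in mutants, with a log2 fold change of 0.02 ± 0.06. Its genotypes thus overlapped almost fully, and its interval, -0.09 to 0.14, was the widest of the 36.

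The 6 metabotropic genes split evenly around 0, with a median of 0.01. Grm8, a presynaptic group III receptor that limits release, had the largest difference of the 36 genes. It ran from 8.34 over 8.63 to 8.75 in wild types and from 8.52 over 8.72 to 8.95 in mutants. The mutants above the highest wild type numbered 4, and the ranges otherwise overlapped. Mutants exceeded wild types by 0.12 ± 0.05, with an interval from 0.02 to 0.21 (limma, adjusted p = 0.320).

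Grm4, another group III receptor, lay in the other direction. Its wild types ran from 8.23 over 8.46 to 8.62 and its mutants from 8.26 over 8.31 to 8.48, with 10 of 12 mutants below the wild-type median and 5 wild types above the highest mutant. The log2 fold change was -0.10 ± 0.04 (limma, adjusted p = 0.320). Among mutants the level of Grm4 differed with array order. Mutants on arrays 1 to 12 reached at most 8.32, and those on arrays 13 to 24 lay at 8.37 or above. Wild types overlapped between these array sets, of which the earlier held 7 mutants and the later 5. With the array set as a term in limma, the log2 fold change of Grm4 was -0.08. Grm5, the postsynaptic group I receptor that Homer binds, ran from 11.52 over 11.59 to 11.67 in wild types and from 11.59 over 11.63 to 11.70 in mutants. All 12 mutants lay above the wild-type median, yet the difference was only 0.05 ± 0.02 (limma, adjusted p = 0.373). Grm7, the third of the group III receptors in this class, had 0.04 ± 0.03, and the group II receptors Grm2 and Grm3 had -0.02 ± 0.04 and -0.01 ± 0.02.

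The metabotropic genes did not vary as a block. Of their 15 pairs, 1 passed, that of Grm5 and Grm7 (r = 0.60, rho = 0.55, adjusted p = 0.035 for r and 0.0576 for rho, permutation test); under quantile normalization it had 0.49 and did not pass. Grm7 was opposed to the kainate gene Grik3, with r = -0.71 and rho = -0.70 (permutation test, adjusted p = 0.0063), the most negative value of the 630 pairs. WT replicate 8 had the highest Grm7 value, 0.14 above its mean, with Grik3 0.23 below, and MUT replicates 4 and 1 were low in Grik3, by 0.25 and 0.21, with Grm7 high by 0.08 and 0.07. Without the 2 mice farthest from the median of Grik3, r was -0.71. The earlier arrays gave -0.82 and the later -0.60. With each array centred on its median it was -0.52 (adjusted p = 0.0813).

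The windows before the outermost starts of these opposed genes, 250 bases each on the plus strand at chr4:125490446-125490695 and chr6:110645262-110645511, differed in the number of GC boxes, given in capitals.
Grik3: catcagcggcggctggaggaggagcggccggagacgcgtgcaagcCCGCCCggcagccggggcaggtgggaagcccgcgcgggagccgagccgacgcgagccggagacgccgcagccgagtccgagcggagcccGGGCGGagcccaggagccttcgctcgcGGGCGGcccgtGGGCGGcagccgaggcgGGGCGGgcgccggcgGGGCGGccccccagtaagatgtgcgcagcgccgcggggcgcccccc
Grm7: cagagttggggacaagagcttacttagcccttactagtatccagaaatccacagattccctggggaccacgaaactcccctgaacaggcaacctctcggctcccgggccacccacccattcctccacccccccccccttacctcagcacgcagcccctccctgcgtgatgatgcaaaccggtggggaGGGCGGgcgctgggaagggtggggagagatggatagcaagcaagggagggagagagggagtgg
The Grik3 window held 6 GC boxes, counted on both strands, and the Grm7 window 1. Their base content differed too, with 82% GC and 42 CpG for Grik3 and 62% GC and 8 CpG for Grm7. Grm7 has 2 listed starts, of which only the outermost was read. Any link between these windows and the correlation of the 2 genes was not tested. Neither held TATAAA or the CRE.

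**Figure D2:**
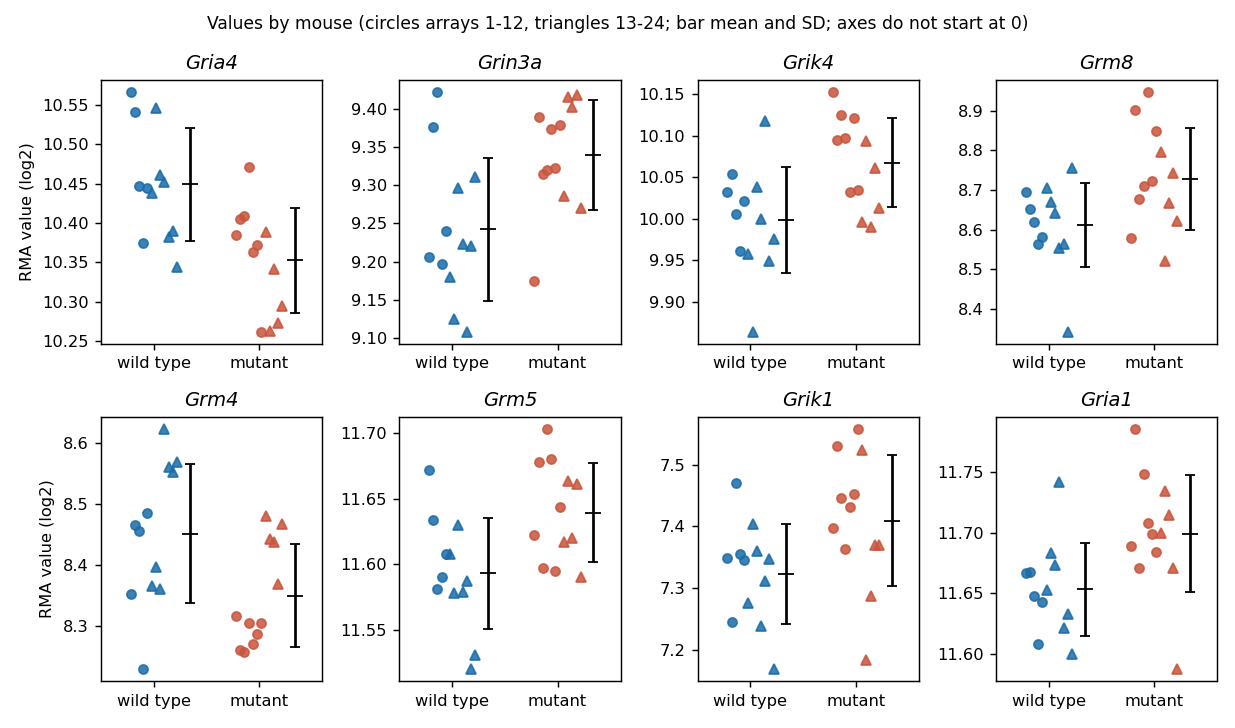
RMA values on the log2 scale by mouse for the 8 receptor genes with an unadjusted p under 0.05, 12 wild types in blue and 12 mutants in red, with the mean and SD of each genotype. In each panel the genotypes overlap; in Grm5 all 12 mutants lie above the wild-type median, and in Gria4 11 of 12 lie below it.

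In the scaffold class no gene had an unadjusted p under 0.05, and the values lay between -0.04 and 0.03. The MAGUK genes, whose proteins anchor receptor tails, had 0.02 ± 0.03 for Dlg4, 0.02 ± 0.02 for Dlg2, 0.02 ± 0.02 for Dlg3 and -0.02 ± 0.03 for Dlg1. Dlg3 ran from 10.15 over 10.18 to 10.31 in wild types and from 10.16 over 10.21 to 10.33 in mutants. Dlg2 ran from 11.56 over 11.70 to 11.79 and from 11.66 over 11.71 to 11.80. The ranges of mutants and wild types overlapped widely in both genes (limma, adjusted p = 0.725 and 0.752).

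Homer1 encodes the adaptor between metabotropic receptors and Shank, and also a short, activity-induced form that this row does not separate. It ran from 10.57 over 10.71 to 10.86 in wild types and from 10.54 over 10.66 to 10.82 in mutants. Here 10 of 12 mutants were below the wild-type median, and the log2 difference was -0.04 ± 0.03 (limma, adjusted p = 0.673). Shank2, the most variable scaffold gene, ran from 9.67 over 9.87 to 10.02 and from 9.71 over 9.89 to 10.08, with 0.02 ± 0.04. Shank1 and Shank3 had 0.03 ± 0.03 and 0.02 ± 0.03, and Dlgap1, Dlgap2 and Homer2 lay between -0.01 and 0.01.

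Nlgn1, the neuroligin of excitatory synapses, had the smallest p of the scaffold class. Its wild types ran from 10.74 over 10.84 to 10.95 and its mutants from 10.70 over 10.82 to 10.89, with 9 of 12 mutants below the wild-type median. The log2 fold change was -0.04 ± 0.03 (limma, adjusted p = 0.583). Nlgn2, the neuroligin of inhibitory synapses, had 0.01 ± 0.03 and Nlgn3, found at either kind, 0.003 ± 0.026. Camk2a and Camk2b, the kinase subunits of the postsynaptic density, had the narrow intervals -0.04 to 0.06 and -0.04 to 0.03. Camk2b varied least between mice of all 36 genes, with an SD within genotypes of 0.03.

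For Dlgap1, Homer2 and Nlgn1 a second, dimmer row was measured. It had log2 fold changes of 0.07 ± 0.04, -0.004 ± 0.043 and -0.01 ± 0.03, none with an unadjusted p under 0.05. The dimmer rows tracked the rows used here weakly, with r of 0.19, 0.01 and 0.16 over the 24 mice within genotypes. Values of these 3 genes therefore belong to the row named and not to the gene as a whole.

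The genes with the highest co-variation in the scaffold class were Dlg4, Shank1 and Camk2a. Dlg4 and Shank1 had r = 0.81 and rho = 0.79, Dlg4 and Camk2a 0.79 and 0.78 (permutation test, adjusted p = 0.0021 for r in each), and Shank1 and Camk2a 0.73 and 0.76 (adjusted p = 0.0063 for r). MUT replicate 9 and WT replicate 10 were highest in Dlg4, by 0.10 and 0.09, and high in Shank1, by 0.10 and 0.11, while MUT replicate 5 was lowest in both, by 0.13 and 0.11. Without the 2 mice farthest from the median of Dlg4, r between Dlg4 and Shank1 was 0.76. The same pair had 0.89 in the earlier and 0.79 in the later array set, while Dlg4 and Camk2a had 0.90 and 0.57, and Shank1 and Camk2a 0.90 and 0.47. Nlgn3 was correlated with Dlg4 and with Shank1 at 0.70 each. Shank1 and Camk2a did not pass under quantile normalization, at 0.58.

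Dlg1 and Homer1 of the same class also varied together, and Homer1 ran against the inhibitory-synapse gene Nlgn2, though not under all settings. Dlg1 and Homer1 had r = 0.71 and rho = 0.62 (permutation test, adjusted p = 0.0084 for r). Homer1 had r = -0.67 with Nlgn2 and -0.69 with the metabotropic gene Grm2 (adjusted p = 0.0134 and 0.0091). Without the 2 mice farthest from the median of the first gene of each pair, these were -0.48 and -0.47, so their size rests in part on 2 mice; rho for Grm2 was -0.56 (adjusted p = 0.0665). Homer1 and Nlgn2 did not pass under quantile normalization, at -0.59, or with each array centred on its median, at -0.31.

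Over the whole set, 68 of the 630 pairs passed, 62 of them positive and 6 negative. An r beyond 0.5 in size was found for 15.2% of the 630 pairs, against 5.26% of the pairs of genes above the median level and 3.32% of all pairs of genes. It was found for 23% of the pairs within a class and 12.6% of those between classes. By class the share was 100% of the 6 AMPA pairs, 22.5% of the 120 scaffold pairs and 20% of the 10 NMDA pairs. For kainate it was 10% and for metabotropic genes 6.67%, both below the share between classes. Whether these shares differ beyond chance was not tested. All pairs share the 24 arrays, their labelling and their normalization, and how far these enter the values of r was not tested. The permutations moved the mice of each genotype independently. Over all genes, same-numbered mice had a median correlation of 0.096, against -0.014 for different numbers. No correlation setting removed the replicate number, and how far it enters r and its p-values was not tested. Under quantile normalization 24 pairs passed, 23 of them among the 68. There, 13% of pairs were beyond 0.5, against 5.19% for genes above the median level. With each array centred on its median, these shares were 15.7% and 8.97%, so the excess over the background was smaller. Without MUT replicates 5, 9 and 10 they were 16.5% and 6.79%, and with deviations taken within array sets 17.6% and 5.89%. With the first principal component of the residuals removed, 81 pairs passed, 67 of them among the 68, and the shares were 17.3% and 5.49%.

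**Figure D3:**
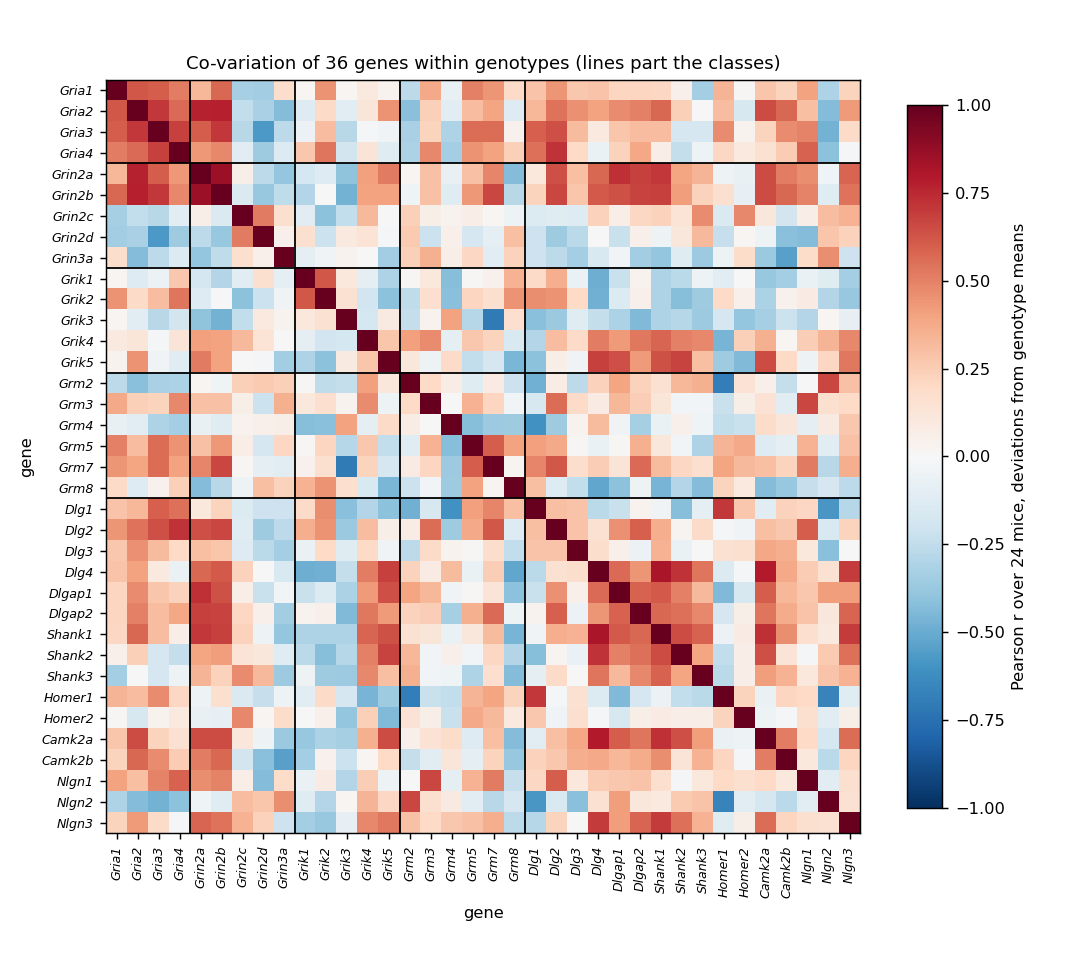
Pearson r between the deviations of 36 genes from their genotype means over 24 mice, in red for positive and blue for negative values, with lines between the classes. The AMPA block is red throughout (0.51 to 0.70), Grin2a and Grin2b form the darkest pair (0.85), and Grik3 with Grm7 is the darkest blue (-0.71).

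**Figure D4:**
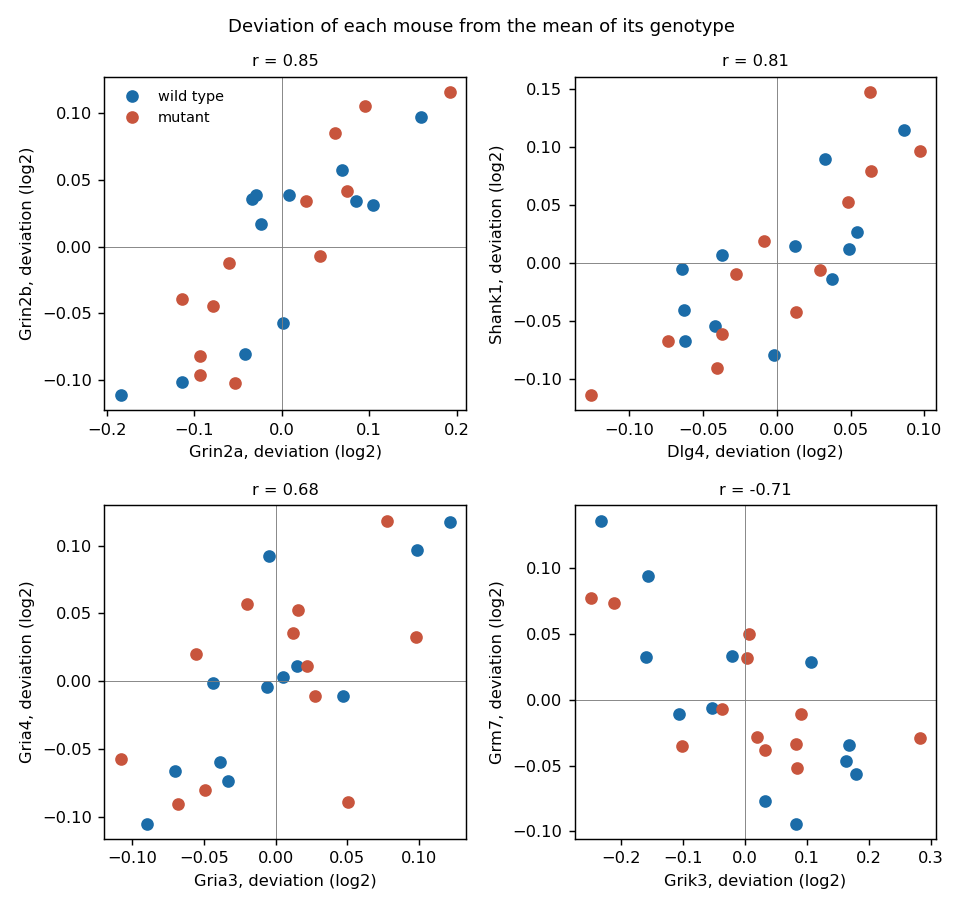
Deviation of each mouse from its genotype mean, in log2 units, for 4 pairs of genes, wild types in blue and mutants in red. Grin2a and Grin2b (0.85), Dlg4 and Shank1 (0.81) and Gria3 and Gria4 (0.68) have positive slopes, Grik3 and Grm7 (-0.71) have a negative slope; the mean of each genotype is 0 by construction.

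The labels number the arrays 1 to 24, with 7 mutants among the arrays 1 to 12 and 5 among the others. The sets share no mouse, so each gives its own comparison. Of the 36 genes, 21 (58.3%) had the same sign in both sets, against 56.8% of all genes; in the receptor classes it was 15 of 20 and in the scaffold class 6 of 16. Gria4 had -0.09 ± 0.04 and -0.12 ± 0.04 in the earlier and later set, Grm8 0.15 ± 0.06 and 0.07 ± 0.07, and Grm4 -0.11 ± 0.04 and -0.05 ± 0.05. Grin3a had 0.04 ± 0.05 and 0.15 ± 0.05. The 8 genes with an unadjusted p under 0.05 over all mice had the same sign in both sets, which contribute to that p. None of the 36 differed between the sets after adjustment, and none had an unadjusted p under 0.05 for the interaction (limma).

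**Figure D5:**
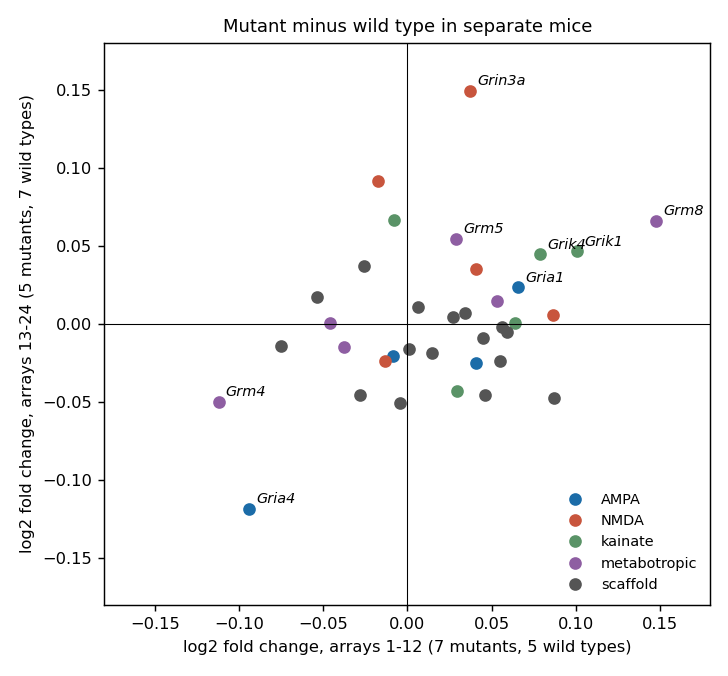
Log2 fold change, mutant minus wild type, over arrays 1 to 12 (horizontal) and arrays 13 to 24 (vertical) for 36 genes coloured by class; the 8 genes with an unadjusted p under 0.05 over all arrays are named. Gria4 and Grm4 lie below 0 on both axes and the other 6 named genes above 0 on both; the scaffold gene Shank2 lies at 0.09 and -0.05.

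Which genes made up the 8 depended in part on single mice and on the processing. With all mice kept, Gria1 and Grm5 lay above 0.05 when each array was centred on its median (limma, unadjusted p = 0.107 and 0.0856). The same 2 genes lay above 0.05 with array weights (limma, unadjusted p = 0.0605 and 0.0567). Gria4, Grin3a, Grik4, Grm8 and Grm4 kept an unadjusted p under 0.05 whichever array was left out. Gria1, Grik1 and Grm5 did not: without MUT replicate 2, and likewise without WT replicate 12, all 3 were above 0.05 and the count was 5. Without MUT replicates 5, 9 and 10, the arrays farthest out on the first principal component of all genes, it was also 5, with Gria1, Grin3a and Grm5 above 0.05. Genotype was not removed from that component, and the arrays left out are all mutants. With genotype means removed, MUT replicates 9 and 4 and WT replicate 5 lay farthest out.

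Grin2a, Dlg1 and Grik1 lie on chromosome 16, as the deletion does, but outside it. Their log2 fold changes were -0.01, -0.02 and 0.09, against a fall of the interval genes on the same chromosome, and none passed.

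Other genes of the same synapse were taken from a list by function, of which 44 of 51 were measured. None passed (limma), and 5 (11.4%) had an unadjusted p under 0.05, close to the 11.9% of all genes. All 5 were higher in mutants, where 6.11% of all genes were higher at that level. The smallest p was that of Cacng8, an auxiliary subunit that brings AMPA receptors to the synapse. It ran from 9.98 over 10.07 to 10.12 in wild types and from 10.07 over 10.14 to 10.22 in mutants, a log2 difference of 0.08 ± 0.02 (limma, adjusted p = 0.124). Shisa7, of another family of receptor-associated proteins, had 0.06 ± 0.03. Nrxn2 and Nrxn3, presynaptic partners of neuroligins, had 0.07 ± 0.03 and 0.06 ± 0.02 (adjusted p = 0.334 and 0.331).

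Of the 20 trafficking and other postsynaptic genes, 10 lay above 0 and 10 below. Lrrtm4, a synaptic adhesion protein that binds presynaptic partners, had 0.05 ± 0.02, and Grip1, which holds AMPA receptors by their tails, 0.05 ± 0.03. Glutamate handling showed little: Glul, the glutamine synthetase of astrocytes, had 0.03 ± 0.03 and Slc1a1, a neuronal glutamate transporter, -0.03 ± 0.03. Of the remaining receptors, Grid1 had -0.002 ± 0.021 and Grm6, the receptor of retinal bipolar cells, 0.05 ± 0.05.

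Markers of the tissue and of other cell types were measured alongside. Markers of excitatory cortical neurons, 4 of 5 measured, had a mean per mouse between 10.44 and 10.52 in mutants and between 10.45 and 10.59 in wild types. Those of interneurons, all 6 measured, lay between 10.04 and 10.27 and between 10.09 and 10.20. None of these passed, and 1, Tbr1 of the excitatory list at -0.06 ± 0.03, had an unadjusted p under 0.05 (limma, adjusted p = 0.389); 3 of the 4 excitatory markers lay below 0. For the neighbouring striatum 4 of 6 markers were measured, with means from 7.59 to 7.87 in mutants and from 7.52 to 7.79 in wild types and a median log2 fold change of 0.11. None of the 4 passed, 3 lay above 0, and 2 had an unadjusted p under 0.05: Ppp1r1b at 0.13 ± 0.04 and Drd2 at 0.12 ± 0.05 (limma, adjusted p = 0.190 and 0.388). No marker of astrocytes, oligodendrocytes or their precursors, microglia, endothelium or choroid plexus had an unadjusted p under 0.05. The table gives no detection call, so no marker could be called absent. Their part in the receptor values was not tested.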

How the data were processed

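RNA from the prefrontal cortex of 24 mice was hybridised to Affymetrix whole-transcript arrays after labelling of 100 ng total RNA, per the labels' protocols. The deposited table holds log2 values for 35556 rows. The authors used RMA, per the submitters' processing notes; neither its version nor a genome build is named in the sources used here. Rows were named through GEO's platform annotation: 21218 had 1 symbol, and the brightest row of each gene gave 18820 genes, all of which were fitted. Chromosomes came from a RefSeq table (assembly GRCm38.p6), which held the Entrez identifiers of all 36 genes. No depth exists for arrays; their number limits the precision.

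MUT was compared with WT in limma 3.58.1 (lmFit, eBayes, R 4.3.3) with genotype as the sole term, after the step was tested on simulated data. Correlations were tested by 100000 permutations of mice within genotypes, adjusted over 630 pairs. Alternatives covered normalization, variance trend, array weights, dim-gene filters, row choice, replicate block, array sets, outlying arrays and each array left out. Correlation settings were chosen after the data were seen.

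Genes and lists were chosen with earlier results of these data known. Values by mouse are given for the 2 smallest p of each receptor class, the 4 smallest of the scaffold class and the most variable gene of each class; Grm5 and the pairs were chosen after their values were seen. Of the other synaptic genes, the 2 smallest p of each group are named. Same-numbered mice had deviations correlated between -0.08 and 0.31, over 0.1 in 6 of 12 pairs. Their median was 0.096, against -0.014 for different numbers. The main fit did not treat numbers as pairs, and the replicate block was an alternative.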

Additional observations from a re-analysis of the deposited data

How the results depend on the processing

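None of the 36 genes and none of the 44 other synaptic genes passed the adjusted threshold (limma) under any of the 14 alternatives or with any single array left out (24 fits), though 2 of the 36 and 3 of the 44 were not tested in the filter at the median level, and the count of genes among the 36 that differed between array sets was 0 wherever it could be fitted. The count with an unadjusted p under 0.05, 8 as reported, was 5 with the array set as a term, 4 over arrays 1 to 12, 2 over arrays 13 to 24 and 5 without the 3 outlying arrays; with each array left out it ran from 5 to 8. The smaller array sets hold fewer samples; the cause of the other shifts was not tested. With the replicate block the count was 7, and none of the 36 passed; Grm5 moved above 0.05. The labels link same-numbered mice by number alone, but their arrays lie near each other in the array order. Their median correlation was 0.096, against -0.014 for different numbers.

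Pairs that passed numbered 68, and 24 under quantile normalization, 60 with median centring (46 of them among the 68), 46 without the 3 outlying arrays and 83 with deviations taken within array sets; the cause was not tested. Pairs beyond 0.5 in size ran from 86 to 106 with each array left out. Some fold changes near 0 reversed sign. Grid1 was at 0.0101 under quantile normalization, 0.000736 with array weights and 0.00381 without the 3 outlying arrays. Over arrays 1 to 12, Grik3 was at -0.00802 and Grm6 at -0.0345, and Grm6 was at -0.00707 without the 3 outlying arrays. Over arrays 13 to 24, Shank2 was at -0.0475, Glul at -0.00761 and Slc1a1 at 0.0181. With each array left out, Grin2a ran from -0.0308 to 0.00111, Grik3 from -0.0047 to 0.0435 and Grid1 from -0.0129 to 0.00364. Where the genes below the median level were left out, 34 of the 36 and 41 of the 44 were tested: Grik1, Grin2d and, of the others, Grm6, Cacng5 and Slc17a6 have no value there. A table with no detection call gives no limit below which a row carries no signal.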
